A study of Mus musculus with 12 samples.

Results

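The 10 genes followed here shape and clear mitochondria. They were measured in cardiomyocytes isolated from mouse hearts, and comprise 3 fusion genes (Opa1, Mfn1, Mfn2), 3 fission genes (Dnm1l, Fis1, Mff) and 4 mitophagy genes (Pink1, Bnip3, Bnip3l, Fundc1). They were chosen by symbol from the 22584 genes of the count table, and all 10 were among the 15004 genes that passed the filter on low counts. Mitochondria join and divide continually. The mitofusins Mfn1 and Mfn2 merge outer membranes and Opa1 merges inner membranes, while the GTPase Dnm1l, drawn to the surface by receptors such as Mff and Fis1, constricts and divides the organelle. Damaged mitochondria are handed to autophagosomes either by the kinase Pink1, which acts through ubiquitin tags on their surface, or by the outer membrane receptors Bnip3, Bnip3l and Fundc1, which bind LC3 proteins directly. Heart muscle cells are packed with mitochondria, and loss of fusion genes in mouse hearts is known to cause cardiomyopathy.

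The cells came from C57BL6 wild-type hearts and formed 4 groups of 3 libraries. CKD JV001 and CKD saline shared a model made by uninephrectomy (loss of 1 kidney), AngII and a diet high in salt, with injection of JV001 or of saline. Sham JV001 and sham saline had a sham operation with the same injections. A duration of 12 weeks is labelled for CKD JV001, sham JV001 and sham saline, and none for CKD saline. The labels give JV001 as a code name alone, in a series whose title concerns telomere recapping by gene therapy in cardiorenal syndrome. The labels give neither sex nor age, and they do not state that a group's libraries came from separate animals, so a p-value here reflects only the spread among these libraries, which may be technical.

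The libraries held between 25.2 and 37.0 counted reads, in units of 1e6, and the least counted member value was 305 reads (Fundc1), so counting error was small for every member. All 12 markers of ventricular cardiomyocytes were detected in every library. Their summed level was 28690 to 63744 CPM in CKD JV001, 57501 to 103458 CPM in CKD saline, 92672 to 100531 CPM in sham JV001 and 85171 to 115268 CPM in sham saline (CPM is counts per 1e6 counts, scaled with TMM factors). Library 3 stood apart in both CKD groups, with mean ventricular marker levels of 10.72 log2 CPM in CKD JV001 and 11.78 log2 CPM in CKD saline, against 11.92 and 11.94 log2 CPM in CKD JV001 libraries 1 and 2 and 12.61 and 12.62 log2 CPM in CKD saline libraries 1 and 2. Library 1 of sham saline also differed from its group, at 12.29 log2 CPM against 12.75 and 12.68 log2 CPM in libraries 2 and 3. Its 10 endothelial markers summed to 1701 CPM, against 486 and 701 CPM in those libraries. In the other groups these markers summed to 2621 to 3013 CPM (CKD JV001), 969 to 3299 CPM (CKD saline) and 1302 to 1479 CPM (sham JV001). The 3299 CPM were those of library 3 of CKD saline. The 10 fibroblast markers summed to 2901 to 3832 CPM in CKD JV001, 633 to 2485 CPM in CKD saline, 625 to 1305 CPM in sham JV001 and 310.3 to 1187 CPM in sham saline. The 10 macrophage markers summed to 539.8 to 1016 CPM in CKD JV001, 104 to 527 CPM in CKD saline, 84.0 to 277 CPM in sham JV001 and 39.4 to 192 CPM in sham saline. The 8 neutrophil markers reached 317 CPM in library 3 of CKD JV001 and 81.3 CPM in library 3 of CKD saline, and at most 6.36 CPM in the sham groups, with up to 5 of the 8 at 0. The 6 atrial markers summed to 671 to 1016 CPM in CKD JV001 and 187 to 293 CPM in CKD saline. They summed to 843 to 3102 CPM in sham JV001 and 389 to 4150 CPM in sham saline, highest in its library 1. The 6 erythroid markers reached 668 CPM in library 3 of CKD saline, 335 CPM in CKD JV001 and at most 57.7 CPM in the sham groups. None of the ventricular, fibroblast and macrophage markers was at 0 in any library, and the part of these cell types in the results that follow was not tested.

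Per transcript length, Pink1 and Mfn2 were the most abundant of the 10 genes and Bnip3l and Fundc1 the least. Mean FPKM (fragments per kilobase of transcript and per 1e6 counted) over the 12 libraries was 246 for Pink1, 149 for Mfn2, 79.5 for Bnip3, 77.6 for Mfn1, 56.3 for Fis1, 40.3 for Mff, 25.7 for Opa1, 18.0 for Dnm1l, 9.80 for Bnip3l and 4.52 for Fundc1. Inside each library this order held, except among Bnip3, Mfn1 and Fis1. Bnip3 stood above Mfn1 in 6 libraries, namely all 3 of CKD JV001, library 3 of CKD saline and libraries 1 and 2 of sham JV001, and Fis1 stood above Mfn1 in library 3 of CKD JV001. Ranges across libraries were wide and those of most neighbours overlapped, for example 20.1 to 51.0 FPKM for Mff and 10.1 to 37.8 FPKM for Opa1. Library 3 of CKD JV001 held the lowest CPM of 9 of the 10 genes. Bnip3l, lowest in library 3 of sham saline, was the exception. The highest library was 4.07 times the lowest for Mfn2, 3.89 times for Opa1 and 3.70 times for Mfn1, but 1.35 times for Bnip3l, the steadiest member in CPM.

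Promoter windows of 300 bases were found for 9 of the 10 genes, in 14 windows of the RefSeq table (build GRCm38.p6, 250 bases before to 50 after the start), while the read counts use build GRCm39. The windows of 3 members are shown, 5′ to 3′ on the gene's strand, because Opa1 and Mfn1 had nearly the same profile over the libraries and Bnip3 had another. Capitals mark the matches to 6 motifs searched on both strands: an NRF1 core (TGCGCA, the same on both strands), a hypoxia response core (ACGTG), an E-box (CACGTG), a cAMP response element core (TGACG), an oestrogen-related receptor site (AAGGTCA) and an ETS site (CCGGAAG).
Opa1, chr16:29579084-29579383, plus strand: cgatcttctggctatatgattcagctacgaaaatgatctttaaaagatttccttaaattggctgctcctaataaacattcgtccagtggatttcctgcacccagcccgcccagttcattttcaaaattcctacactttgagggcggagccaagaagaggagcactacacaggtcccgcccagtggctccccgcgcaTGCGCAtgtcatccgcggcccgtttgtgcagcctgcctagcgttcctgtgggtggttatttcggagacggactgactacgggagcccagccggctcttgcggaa
Mfn1, chr3:32529232-32529531, plus strand: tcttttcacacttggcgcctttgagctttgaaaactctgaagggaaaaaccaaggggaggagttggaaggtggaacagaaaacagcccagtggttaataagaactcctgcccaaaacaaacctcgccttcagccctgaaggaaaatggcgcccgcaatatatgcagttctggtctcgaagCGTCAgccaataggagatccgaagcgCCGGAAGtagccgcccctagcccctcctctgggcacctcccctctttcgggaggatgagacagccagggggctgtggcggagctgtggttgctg
Bnip3, chr7:138909457-138909756, minus strand: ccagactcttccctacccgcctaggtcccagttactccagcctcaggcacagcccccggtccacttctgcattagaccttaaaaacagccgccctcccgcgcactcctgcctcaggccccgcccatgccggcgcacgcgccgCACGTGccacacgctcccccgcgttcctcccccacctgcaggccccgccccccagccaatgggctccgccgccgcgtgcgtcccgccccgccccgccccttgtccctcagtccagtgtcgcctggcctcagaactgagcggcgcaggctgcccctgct
The Opa1 window held the NRF1 core, starting at base -54 from the gene's start, a match present in 7.76% of the 32851 windows of the table. That core was also in 1 window of Fis1 and, with 2 matches, in the window of Pink1. In the Mfn1 window the core TGACG, read on the opposite strand, lay at -70 and the ETS site at -44 (20.8% and 8.86% of all windows). In the Bnip3 window the E-box lay at -108 (7.15% of windows), and because CACGTG contains ACGTG on both strands, the 2 hypoxia core matches there lie inside the E-box (19.6% of windows). The ETS site was also in 1 of the 2 windows of Dnm1l and both of Fis1, the TGACG core in all windows of Mfn2 and Mff, and ACGTG in 2 of the 3 windows of Mfn2. AAGGTCA was in none of the 14 windows (4.72% of all windows). These matches describe letters, not binding.

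Among the fusion genes, all 3 had their lowest levels in CKD JV001. Opa1, the inner membrane fusion GTPase, had 124, 132 and 70.7 CPM in CKD JV001, 235, 224 and 124 CPM in CKD saline, 234, 201 and 238 CPM in sham JV001 and 204, 275 and 272 CPM in sham saline, each in the order of libraries 1, 2 and 3. Library 2 of CKD JV001, its highest, lay above library 3 of CKD saline and below every sham library. For Mfn1, an outer membrane mitofusin, the levels were 280.1, 269.5 and 125 CPM in CKD JV001, 424, 414 and 250.3 CPM in CKD saline, 400.3, 371 and 435 CPM in sham JV001 and 356, 464 and 456 CPM in sham saline. Mfn2, the mitofusin that also tethers mitochondria to the sarcoplasmic reticulum, counted 660.4, 664 and 301 CPM in CKD JV001, 1031, 1027 and 609 CPM in CKD saline, 951, 894 and 973 CPM in sham JV001 and 909, 1227 and 1155 CPM in sham saline. Both mitofusins followed the pattern of Opa1: the CKD JV001 libraries lay under all sham libraries, and library 3 of CKD saline lay among them.

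The fission genes differed more from each other. The GTPase Dnm1l had 60.5, 59.1 and 41.0 CPM in CKD JV001, 85.1, 91.9 and 62.6 CPM in CKD saline, 98.7, 95.9 and 99.2 CPM in sham JV001 and 77.5, 98.1 and 95.9 CPM in sham saline. It was the 1 member whose CKD JV001 libraries lay under those of CKD saline without overlap, with 60.5 CPM in the highest CKD JV001 library against 62.6 CPM in the lowest CKD saline library. Mff, a surface receptor of Dnm1l, had 79.3, 73.9 and 41.0 CPM in CKD JV001, 105, 108 and 66.1 CPM in CKD saline, 86.2, 93.6 and 105 CPM in sham JV001 and 90.8, 107 and 107 CPM in sham saline. Levels of Fis1, a tail-anchored outer membrane adaptor, were 63.4, 60.2 and 37.1 CPM in CKD JV001, 73.9, 75.6 and 54.7 CPM in CKD saline, 58.0, 59.9 and 62.6 CPM in sham JV001 and 61.5, 69.8 and 69.9 CPM in sham saline. For Fis1 only library 3 of CKD JV001 and library 3 of CKD saline lay below the sham range, and libraries 1 and 2 of CKD JV001 lay inside it.

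Of the mitophagy genes, Pink1 had its lowest levels in CKD JV001, as the fusion genes did, and Bnip3l varied least. The kinase Pink1 had 512, 502 and 257 CPM in CKD JV001, 721, 719.6 and 458 CPM in CKD saline, 656, 649 and 586 CPM in sham JV001 and 688, 753 and 704 CPM in sham saline. Bnip3, a receptor known to be induced in hypoxia, had 127, 116 and 82.0 CPM in CKD JV001, 154, 148 and 104 CPM in CKD saline, 237, 157 and 161 CPM in sham JV001 and 109.7, 147 and 141 CPM in sham saline. Library 1 of sham JV001 was the highest of the 12 libraries for Bnip3, and all 3 sham JV001 libraries lay above the other groups. Its relative Bnip3l (also called Nix) had 47.2, 45.2 and 40.0 CPM in CKD JV001, 39.7, 41.8 and 44.8 CPM in CKD saline, 46.9, 41.6 and 45.8 CPM in sham JV001 and 41.7, 39.6 and 34.9 CPM in sham saline. All 4 groups overlapped for Bnip3l. Fundc1, the least abundant receptor, had 15.9, 16.5 and 9.77 CPM in CKD JV001, 14.8, 17.4 and 12.1 CPM in CKD saline, 18.1, 16.2 and 20.1 CPM in sham JV001 and 13.7, 18.1 and 16.8 CPM in sham saline, and only library 3 of either CKD group lay outside the sham range.

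**Figure D1:**
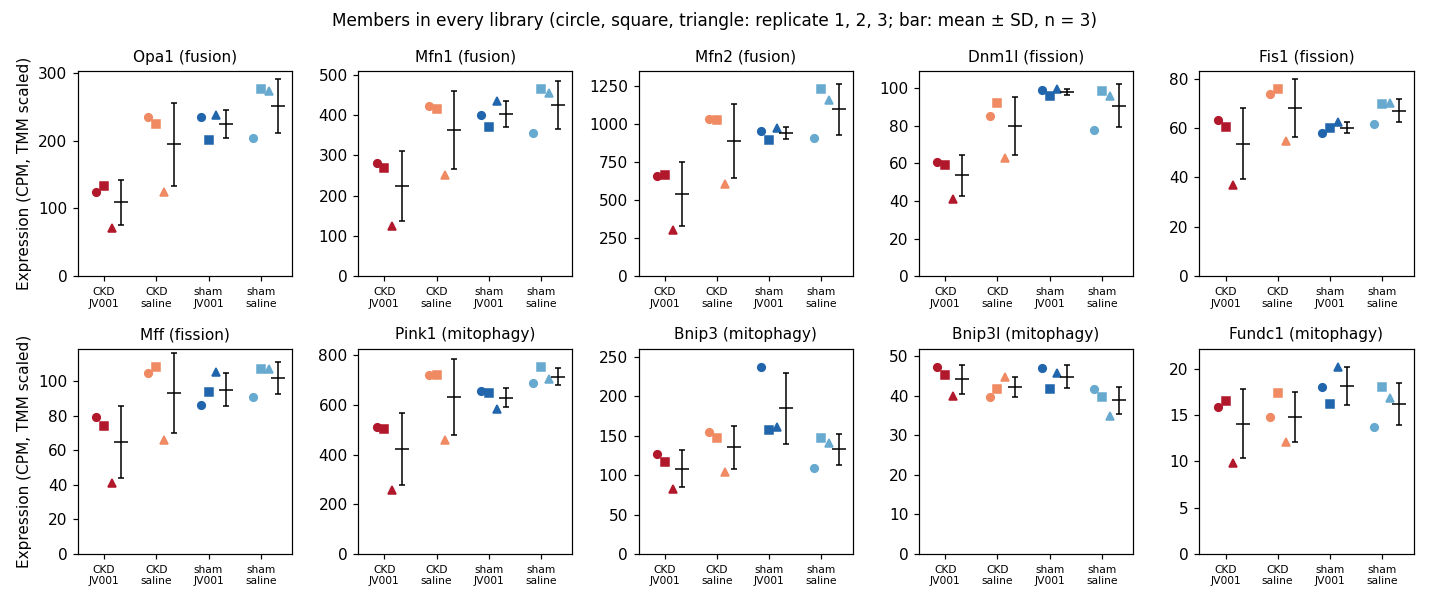
Level of each gene in every library (y axis, TMM-scaled CPM from 0) by group (x axis: CKD JV001, CKD saline, sham JV001, sham saline). Circles, squares and triangles are libraries 1, 2 and 3, and bars give the mean ± SD of 3 libraries. The triangles of both CKD groups sit lowest in their group for every gene except Bnip3l in CKD saline.

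The first comparison asks how JV001 and saline differed within the CKD model. Between CKD JV001 and CKD saline, 9 of the 10 genes had a lower mean with JV001, and none passed the test. Opa1 averaged 109 ± 33.3 CPM in CKD JV001 and 194 ± 61.0 CPM in CKD saline (SD, n = 3 each), a log2 fold change of -0.84 (SE 0.28, edgeR quasi-likelihood test, Benjamini-Hochberg adjusted p = 0.276). Dnm1l averaged 53.5 ± 10.9 CPM in CKD JV001 and 79.9 ± 15.3 CPM in CKD saline, a log2 fold change of -0.58 (SE 0.19, adjusted p = 0.276). The log2 fold changes were -0.71 for Mfn2, -0.69 for Mfn1, -0.58 for Pink1, -0.52 for Mff, -0.35 for Fis1, -0.32 for Bnip3, -0.073 for Fundc1 and 0.068 for Bnip3l, with SEs of 0.13 to 0.30 and adjusted p from 0.276 to 0.846. Library 3 of CKD JV001 weighed on these values. Without it they were -0.60 for Opa1, -0.42 for both Dnm1l and Mfn2, -0.40 for Mfn1, -0.32 for Pink1 and -0.28 for Mff. They were then -0.14 for Fis1, -0.16 for Bnip3 and 0.13 for both Fundc1 and Bnip3l. Library 3 of CKD saline weighed the other way: without it Opa1 was -1.09, Mfn2 -0.94, Mfn1 -0.91 and Dnm1l -0.74. With all libraries kept, the median over the 10 genes was -0.55, beside 0.022 over all genes tested. At these group sizes edgeR called 0 of 15004 genes (0%) at an adjusted p of 0.05, while DESeq2 called 67 genes and 2707 genes had an unadjusted edgeR p under 0.05. Of the members, 5 had an unadjusted p under 0.05, all lower in CKD JV001, beside 8.75% of all genes lower at that level, and 1 member, Dnm1l, lay lower without overlap, beside 6.04% of all genes (8.22% lay higher). The mean ventricular marker level differed by -0.81 on the log2 scale between the same groups, and that of 15 nuclear respiratory chain genes by -0.73, and their part in the members' differences was not tested. Fewer heart muscle cells in a sample and less RNA of these genes per cell cannot be told apart in such bulk libraries.

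The libraries' numbers bore on this comparison. CKD JV001 and CKD saline libraries of the same number deviated together from their group means (correlation across genes 0.296, 0.289 and 0.492 for numbers 1, 2 and 3), although the labels do not state a pairing. Deviations cancel within a group and library 3 stood apart in both, so the 3 correlations are not independent and cannot establish a pairing. With the number as a block in the fit of all 12 libraries, edgeR called 0 members and 0 genes in this comparison. In a fit of these 6 libraries alone with the same block, which was added after the data had been seen, 6 members passed, all lower in CKD JV001, beside 9.56% of all genes that passed lower. They were Opa1 (log2 fold change -0.82, edgeR adjusted p = 0.0123), Mfn2 (-0.75, adjusted p = 0.0127), Mfn1 (-0.73, adjusted p = 0.0145), Pink1 (-0.60, adjusted p = 0.0157), Dnm1l (-0.57, adjusted p = 0.0233) and Mff (-0.53, adjusted p = 0.0257). In the same edgeR fit, Fis1 (adjusted p = 0.0720), Bnip3 (adjusted p = 0.0726), Bnip3l (adjusted p = 0.653) and Fundc1 (adjusted p = 0.714) did not pass. The same 6 members were called, lower in CKD JV001, without library 3 of CKD saline (8.07% of all genes called lower) and without library 3 of both CKD groups (10.1%), a setting that was also added after the data had been seen. Within numbers 1, 2 and 3, CKD JV001 over CKD saline was 0.527, 0.590 and 0.570 for Opa1, 0.712, 0.643 and 0.655 for Dnm1l, 0.661, 0.651 and 0.50 for Mfn1 and 0.821, 0.786 and 0.792 for Bnip3. For Bnip3l (1.19, 1.08 and 0.893) and Fundc1 (1.08, 0.946 and 0.807) the ratio straddled 1. These ratios carry no test, and how many of all genes keep 1 sign was not counted.

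**Figure D2:**
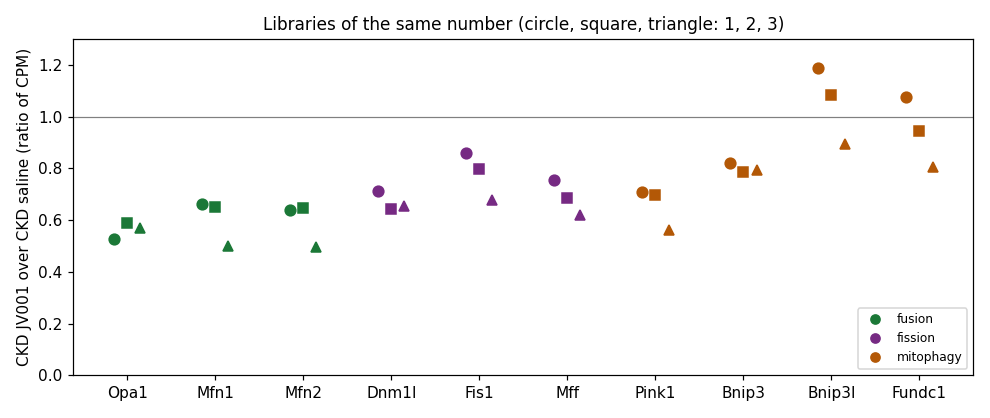
Ratio of CPM in CKD JV001 over CKD saline (y axis) for libraries of the same number, by gene (x axis), coloured by role. Points of Opa1 lie between 0.527 and 0.590, and those of Bnip3l and Fundc1 lie on both sides of 1.

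The CKD model was also set against sham under JV001. All 10 genes had a lower mean in CKD JV001 than in sham JV001, and none passed, although Dnm1l and Opa1 came closest. Dnm1l averaged 53.5 ± 10.9 CPM in CKD JV001 and 97.9 ± 1.77 CPM in sham JV001 (log2 fold change -0.87, SE 0.19, edgeR adjusted p = 0.0857). Opa1 averaged 109 ± 33.3 CPM in CKD JV001 and 224 ± 20.6 CPM in sham JV001 (log2 fold change -1.04, SE 0.28, adjusted p = 0.0940). Bnip3 had a log2 fold change of -0.77 (SE 0.24, edgeR adjusted p = 0.108), and one of -0.56 without library 1 of sham JV001. Mfn1 (-0.84), Mfn2 (-0.79), Pink1 (-0.57) and Mff (-0.55) had adjusted p from 0.124 to 0.182. Without library 3 of CKD JV001 these were -0.55, -0.50, -0.31 and -0.31, and Fundc1 was -0.16. The smallest differences were those of Fundc1 (-0.37), Fis1 (-0.17) and Bnip3l (-0.021), with adjusted p from 0.283 to 0.923. The median of the 10 was -0.67, beside 0.022 over all genes.

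Without overlap, 7 members lay lower in CKD JV001 than in sham JV001: the 3 fusion genes, Dnm1l, Mff, Pink1 and Bnip3. Of all genes, 20.1% did so and 22.9% lay higher. The same was true of 10 of the 12 ventricular markers and of all 15 respiratory chain genes, whose mean levels differed by -0.96 and -0.83 on the log2 scale. The same 7 members had an unadjusted p under 0.05, beside 12.7% of all genes lower at that level. Over all genes edgeR called 3, all lower in CKD JV001 (0.0200%). DESeq2 called 4 members, namely Dnm1l (adjusted p = 0.00192), Opa1 (adjusted p = 0.0105), Bnip3 (adjusted p = 0.0287) and Mfn1 (adjusted p = 0.0477), each lower, beside 6.78% of all genes it called lower. A fit of these 2 groups alone called Dnm1l (edgeR adjusted p = 0.0403, 1.38% of all genes called lower). Without library 3 of both CKD groups edgeR called the 3 fusion genes and Dnm1l, all lower (adjusted p from 0.0106 to 0.0398), beside 5.60% of all genes.

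**Figure D3:**
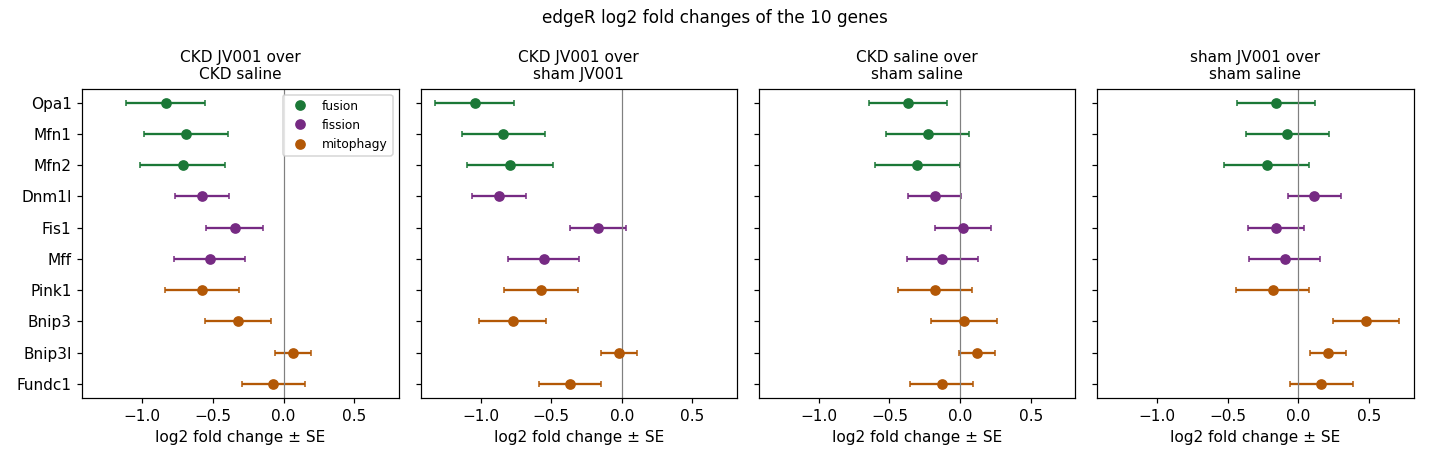
Log2 fold change ± SE of edgeR (x axis) for each gene (y axis), coloured by role, in 4 comparisons, each over 3 libraries a group. Values for the fusion genes, Dnm1l, Mff and Pink1 lie under 0 in both CKD JV001 panels (-0.52 to -1.04), while those of Bnip3l lie near 0. The panels share groups, so they are not independent of each other.

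Under saline, the CKD model was set against sham. No member passed the test between CKD saline and sham saline, and the groups overlapped for all 10 genes. Opa1 averaged 194 ± 61.0 CPM in CKD saline and 251 ± 40.1 CPM in sham saline (log2 fold change -0.37, SE 0.28, 95% interval -0.98 to 0.24, edgeR adjusted p = 0.941). Mfn2 (-0.30) and Mfn1 (-0.23) followed, and the other log2 fold changes ran from -0.18 for Dnm1l to 0.12 for Bnip3l, with adjusted p from 0.952 to 0.997. Without library 3 of CKD saline, Opa1 was -0.11, Mfn2 -0.071, Mfn1 0.00092 and Dnm1l -0.011. Other libraries moved them the other way: Mfn2 was -0.42 without library 1 of sham saline, and Opa1 -0.52 without library 1 of CKD saline. The median of the 10 was -0.15, beside 0.011 over all genes. Of all genes, 6.44% lay lower and 4.12% higher without overlap, and edgeR called 0 of them (0%), with 743 at an unadjusted p under 0.05 and 54 called by DESeq2. No member had an unadjusted p under 0.05. These intervals leave room for differences: that of Mfn2 ran from -0.97 to 0.36 and that of Bnip3l from -0.16 to 0.40.

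In sham animals, JV001 was set against saline, and no member passed. Bnip3 averaged 185 ± 45.1 CPM in sham JV001 and 133 ± 20.1 CPM in sham saline, without overlap (log2 fold change 0.48, SE 0.23, unadjusted p = 0.0657, edgeR adjusted p = 0.9997). Without library 1 of sham JV001, the library at 237 CPM, the log2 fold change of Bnip3 was 0.27. Pink1 lay lower without overlap, with 630.2 ± 38.6 CPM in sham JV001 and 715 ± 33.6 CPM in sham saline (log2 fold change -0.18, SE 0.26). These were the only members without overlap, 1 each way of 10, near the 5.69% of all genes that lay higher and the 6.71% that lay lower. The other 8 members ran from -0.22 for Mfn2 to 0.21 for Bnip3l. Without library 1 of sham saline, Mfn2 was -0.35, Opa1 -0.29 (from -0.16) and Dnm1l 0.0091 (from 0.11). Over all 12 libraries, all 10 members had an adjusted p of 0.9997. The median was -0.088 for the members and -0.0056 for all genes, of which edgeR called 0 (0%), with 426 at an unadjusted p under 0.05 and 3 called by DESeq2. No member had an unadjusted p under 0.05.

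The difference between the effect of JV001 in CKD and in sham (the interaction) was negative for all 10 genes and passed for none. It was -0.80 for Bnip3 (SE 0.33, unadjusted p = 0.0343), -0.69 for Dnm1l (SE 0.27, unadjusted p = 0.0252), -0.68 for Opa1, -0.61 for Mfn1 and -0.14 for Bnip3l, with edgeR adjusted p from 0.840 to 0.878 over the 10 genes. For Bnip3 the interaction was -0.60 without library 1 of sham JV001. Without library 3 of CKD JV001 it was -0.53 for Dnm1l, -0.44 for Opa1, -0.32 for Mfn1 and -0.20 for Mfn2. It was then -0.18 for Mff, -0.14 for Pink1, -0.074 for Bnip3l, -0.031 for Fundc1 and 0.018 for Fis1. The median was -0.46 for the members and -0.0015 for all genes. No gene was called by edgeR (0%), while 567 had an unadjusted p under 0.05 and DESeq2 called 2.

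Against the ventricular markers, the members differed in how far they varied over the libraries. The log2 level of Mfn1 minus the mean of the 12 markers stayed within a full range of 0.17 over the 12 libraries, where Mfn1 itself ranged over 1.89 log2 CPM. Mfn2 stayed within 0.19, against 2.03 for its own level, and Opa1 within 0.40, against 1.96. Only 0.0400% of the genes tested had a narrower range than Mfn1 on this relative scale, 0.0800% than Mfn2 and 1.45% than Opa1. The range was 0.67 for Pink1, 0.70 for Mff, 0.84 for Dnm1l, 1.13 for Fis1, 1.18 for Bnip3 and 1.30 for Fundc1. Bnip3l ranged over 2.15 relative to the markers and over 0.43 in its own log2 CPM, and 42.2% of the genes tested had a narrower relative range. It stood highest relative to the markers in library 3 of CKD JV001, at -5.40, and lowest in library 3 of sham saline, at -7.55. These are ranges of values that share each library's composition, and they carry no test.

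**Figure D4:**
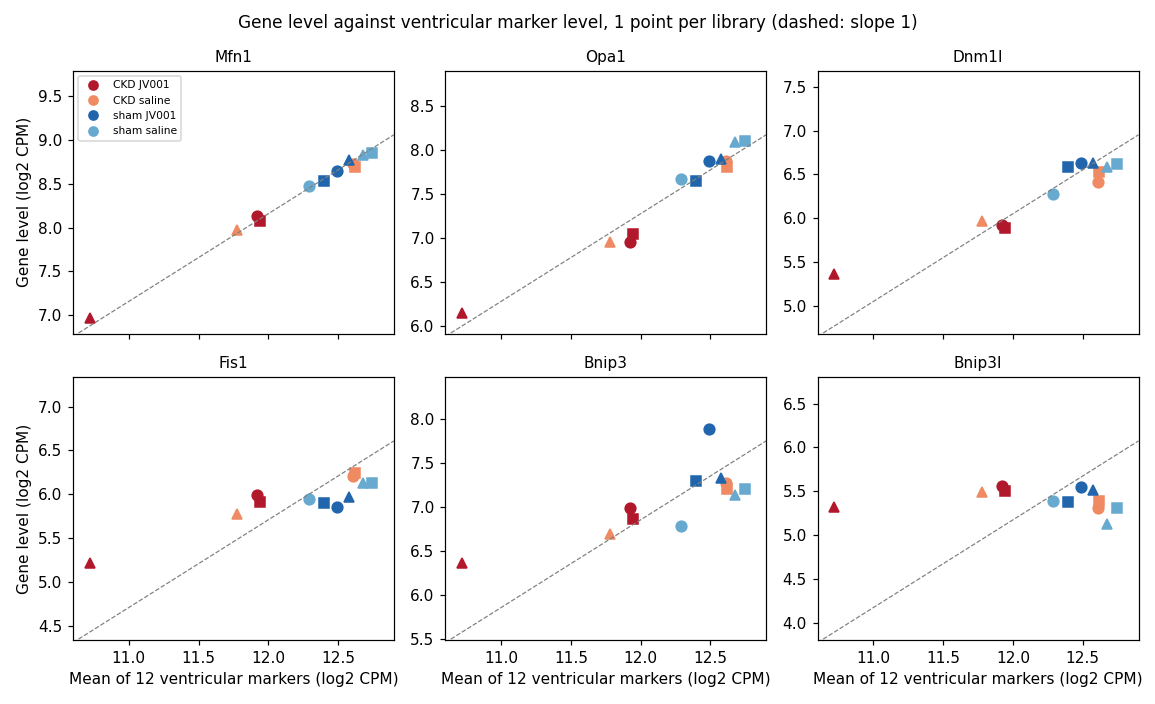
Log2 CPM of 6 genes (y axis) against the mean log2 CPM of 12 ventricular markers (x axis), 1 point per library. The dashed line has slope 1, colours are the groups, and circles, squares and triangles are libraries 1, 2 and 3. Mfn1 minus the marker mean has a full range of 0.17 over the libraries, while Bnip3l runs flat.

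On that relative scale the fusion genes overlapped between CKD JV001 and CKD saline. Opa1 differed by -0.024 between CKD JV001 and CKD saline, Mfn1 by 0.069 and Mfn2 by 0.046. Dnm1l differed by 0.23, Pink1 by 0.19, Mff by 0.26 and Fis1 by 0.44. Bnip3 (0.49) and Fundc1 (0.71) were the 2 members that lay higher without overlap in CKD JV001 than in CKD saline, beside 18.4% of all genes, and Bnip3l differed by 0.87 with overlap. Within numbers 1, 2 and 3, however, the difference of Bnip3l was 0.94, 0.79 and 0.90. For Opa1 it ran from -0.23 to 0.25. The marker level itself differed by -0.81 between these groups, beside a median of 0.022 over all genes, so a gene of unchanged CPM lies above 0 on this scale. Between CKD JV001 and sham JV001, 6 members (Mfn2, Fis1, Mff, Pink1, Bnip3l and Fundc1) lay higher without overlap relative to the markers, beside 69.2% of all genes, a share near that of the members. Among the fusion genes there, Mfn2 differed by 0.077, Mfn1 by 0.035 and Opa1 by -0.13. Between sham JV001 and sham saline, 3 members (Dnm1l, Bnip3 and Fundc1) lay higher, beside 5.21% of all genes, with differences of 0.20, 0.55 and 0.25, and Mfn2 lay lower by -0.13, beside 3.49% of all genes. Between CKD saline and sham saline, Opa1 (-0.17) and Mfn2 (-0.098) lay lower without overlap, beside 2.07% of all genes. Bnip3 (0.25) lay higher there, beside 6.71% of all genes. Against the mean of the 15 respiratory chain genes instead, CKD JV001 minus sham JV001 was -0.053 for Mfn2 and -0.095 for Mfn1, both with overlap. Opa1 (-0.26) then lay lower without overlap, and Fis1, Mff, Pink1, Bnip3l and Fundc1 still lay higher. In the other comparisons the members without overlap were the same with either reference. The share of all genes was not counted against the respiratory chain genes.

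Ratios between members inside a library do not depend on the library's scaling. They can still depend on its mix of cells, whose part was not tested. Relative to the ventricular markers, the fusion genes had ranges of 0.17 to 0.40 and the fission genes of 0.70 to 1.13. The log2 ratio of Mfn2 over Mfn1 in FPKM averaged 0.92 ± 0.032 in CKD JV001, 0.94 ± 0.016 in CKD saline, 0.88 ± 0.058 in sham JV001 and 1.02 ± 0.033 in sham saline (SD, n = 3 each). Both CKD saline and sham JV001 lay under sham saline without overlap, by -0.075 and -0.14 (exact permutation test, two-sided, p = 0.1 for each, the smallest that 3 against 3 allow). The log2 ratio of Bnip3l over Bnip3 averaged -2.58 ± 0.21 in CKD JV001, -2.97 ± 0.40 in CKD saline, -3.33 ± 0.28 in sham JV001 and -3.07 ± 0.33 in sham saline. It was 0.75 higher in CKD JV001 than in sham JV001, without overlap (exact permutation p = 0.1). The summed log2 FPKM of the 3 fusion genes minus that of the 3 fission genes averaged 1.85 ± 0.56 in CKD JV001, 2.69 ± 0.46 in CKD saline, 3.04 ± 0.27 in sham JV001 and 3.35 ± 0.26 in sham saline. CKD JV001 lay under sham JV001 by -1.19, without overlap (exact permutation p = 0.1). The 12 comparisons of ratios had Benjamini-Hochberg adjusted p of 0.3 to 0.6. With 3 against 3 libraries none could have reached 0.05, so these tests cannot decide whether a ratio differed. These tests do not use the library numbers. Within numbers 1, 2 and 3, CKD JV001 minus CKD saline was -1.05, -0.50 and -0.97 for fusion minus fission, and 0.53, 0.46 and 0.17 for Bnip3l over Bnip3, so each kept 1 sign. These differences within numbers are given with no test.

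**Figure D5:**
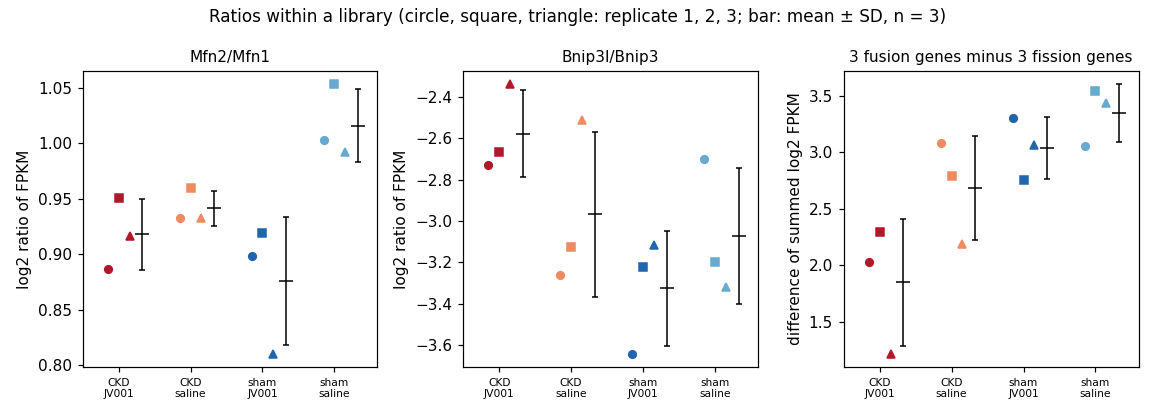
Log2 ratio of FPKM of Mfn2 over Mfn1 and of Bnip3l over Bnip3, and summed log2 FPKM of the fusion genes minus the fission genes (y axes), by group (x axis). Circles, squares and triangles are libraries 1, 2 and 3, and bars give the mean ± SD of 3 libraries. Sham saline has the highest mean Mfn2 over Mfn1 (1.02) and CKD JV001 the lowest fusion minus fission value (1.85).

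The members' profiles over the 12 libraries were compared with each other and with 8339 genes of at least 3 mean log2 CPM, as a description over points that share library composition. Pearson's r was 0.994 between Mfn1 and Mfn2, 0.979 between Opa1 and Mfn1 and 0.984 between Mfn1 and Mff. Between Opa1 and Bnip3l it was -0.276. Without library 3 of both CKD groups these were 0.974, 0.983, 0.927 and -0.608, and r between Opa1 and Fis1 was 0.820 over 12 libraries but 0.426 over these 10. The genes with the most similar profile were Phtf2 for Opa1 (r = 0.997, Spearman's rho = 0.972), Etfa for Mfn1 (r = 0.998, rho = 0.993), Hrc for Mfn2 (r = 0.998, rho = 0.986), Ppip5k2 for Dnm1l (r = 0.989, rho = 0.972), Gadd45gip1 for Fis1 (r = 0.995, rho = 0.993) and Ndufa4 for Mff (r = 0.995, rho = 0.909). For the mitophagy genes they were Gpc1 for Pink1 (r = 0.992, rho = 0.993), Fam214a for Bnip3 (r = 0.973, rho = 0.965), Pttg1 for Fundc1 (r = 0.955, rho = 0.832) and S100a13 for Bnip3l (r = 0.840, rho = 0.748). Next in line came Lrpprc and Cs for Opa1, Grsf1 and Phyh for Mfn1, Crat and Pfkm for Mfn2, Sec31b and P2ry1 for Dnm1l, Cdc34 and Coa3 for Fis1, Tspan3 and Sdhd for Mff, Ddo and Ndufv1 for Pink1, Eif4a2 and Glul for Bnip3, Ypel3 and Aup1 for Bnip3l, and Ubl5 and Ngly1 for Fundc1. Without library 3 of both CKD groups, r of Fundc1 was 0.823 with Pttg1, 0.723 with Ubl5 and 0.684 with Ngly1. For the other members, r with the most similar gene then ran from 0.831 (Bnip3l) to 0.993 (Opa1).

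Other genes of the same machinery gave no call in any comparison with edgeR over all 12 libraries and no block. Of 15 further fusion and inner membrane genes, 14 were tested, and all 14 had a lower mean in CKD JV001 than in CKD saline (median log2 fold change -0.50). Among them were Immt, the core of the cristae organising complex, at 329 ± 114 CPM in CKD JV001 and 539 ± 154 CPM in CKD saline (log2 fold change -0.71, SE 0.29), Afg3l2, a protease subunit of the inner membrane (-0.69, SE 0.29), Opa3 (-0.48, SE 0.22) and Miga1, an outer membrane fusion factor (-0.62, SE 0.20). Miga1 lay lower without overlap, at 7.62 ± 0.889 CPM in CKD JV001 and 11.7 ± 2.93 CPM in CKD saline. Between CKD JV001 and sham JV001, 10 of the 14 lay lower without overlap, beside the 20.1% of all genes given above, among them Miga1 (-0.72, edgeR adjusted p = 0.0984) and Slc25a46, an outer membrane protein of the carrier family (-0.70, adjusted p = 0.117). In that comparison DESeq2 called Immt, Miga1 and Slc25a46 lower (6.78% of all genes). With the block in the CKD groups alone, 6 of the 14 were called lower in CKD JV001 than in CKD saline (9.56% of all genes), among them Immt and Afg3l2.

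Of 12 further fission genes, 11 were tested, of which 8 had a lower and 3 a higher mean in CKD JV001 than in CKD saline (median -0.34). Mtfr1, a fission regulator, had a log2 fold change of -0.51 (SE 0.20), Mtfr1l one of -0.64 (SE 0.30) and Mul1, an outer membrane ubiquitin ligase, one of -0.34 (SE 0.17). Spire1, an actin nucleator, ran the other way, at 10.2 ± 3.74 CPM in CKD JV001 and 6.62 ± 0.616 CPM in CKD saline (0.63, SE 0.28). In CKD JV001 against sham JV001, 5 of the 11 lay lower and 1 higher without overlap (20.1% and 22.9% of all genes), with Mtfr1 at -0.58 (SE 0.20) and Mief1, an outer membrane receptor of Dnm1l, at -0.36 (SE 0.14). Inf2, a formin that assembles actin where mitochondria divide, had the highest log2 fold change of the list in all 4 comparisons of groups and passed in none. It was 0.74 (SE 0.48, edgeR adjusted p = 0.354) in CKD JV001 over CKD saline and 0.82 (SE 0.48, adjusted p = 0.270) in CKD JV001 over sham JV001, where it was the 1 gene that lay higher. It was 1.06 (SE 0.48, adjusted p = 0.941) in CKD saline over sham saline and 0.98 (SE 0.48, adjusted p = 0.9997) in sham JV001 over sham saline. With the block in the CKD groups alone, 3 of the 11 were called lower in CKD JV001 (Mtfp1, Mtfr1 and Mtfr1l), beside 9.56% of all genes. Without library 3 of both CKD groups, 4 were called lower and Inf2 higher. Over all genes, that setting called 1549 lower (10.1%) and 1494 higher between the CKD groups.

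All 15 further mitophagy genes were tested, and 12 had a lower mean in CKD JV001 than in CKD saline (median -0.18). Nipsnap2, a mitochondrial protein that can bind autophagy adaptors (-0.79, SE 0.32), the phosphatase Pgam5 (-0.44, SE 0.19) and the receptor Bcl2l13 (-0.62, SE 0.22) did not pass, each with an edgeR adjusted p of 0.276. Nipsnap2 averaged 370.3 ± 143 CPM in CKD JV001 and 774 ± 44.5 CPM in sham JV001 (log2 fold change -1.06, SE 0.32, edgeR adjusted p = 0.105). Bcl2l13 had a log2 fold change of -0.77 in the same comparison (SE 0.22, adjusted p = 0.0991), and 7 of the 15 genes lay lower and 1 higher without overlap (20.1% and 22.9% of all genes). DESeq2 called Bcl2l13 and Nipsnap2 lower there, beside 6.78% of all genes. With the block in the CKD groups alone, 5 of the 15 were called lower in CKD JV001 than in CKD saline (9.56% of all genes). They were Bcl2l13, Fundc2, Nipsnap2, Phb2 and Usp15. Phb2 was also in the list of further fusion and inner membrane genes, so both lists count it.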

How the data were processed

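Per the labels' protocols, 1.3 ug of RNA (RNeasy plus mini kit) went into polyadenylated VAHTS Universal V6 libraries. The deposited counts are whole reads per gene symbol, left unnormalised by the authors, with fastp, HISAT2, HTSeq and build GRCm39 named in the submitters' processing notes. Tool versions, annotation, counting mode and strandedness were not given in the sources used here, so reads of overlapping or antisense genes cannot be told apart. FPKM, also deposited by the authors, rest on those counts (equal within 1 percent for all 10249 genes of at least 50 reads in each library).

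edgeR 4.0.16 (R 4.3.3) tested counts with TMM factors, its quasi-likelihood test and filterByExpr (minimum count 10), in 1 fit of 12 libraries and 4 group means. Benjamini-Hochberg adjustment ran over 15004 genes, and called means an adjusted p under 0.05. Log2 CPM used a prior count of 2. Simulated data with known changes were used to test the fits. The members and lists were chosen with earlier results of these data known. Alternatives used DESeq2 1.42.0, limma 3.58.1 on FPKM, other filters and factors, and libraries left out. From each other list, the text draws its names from the 4 genes with the smallest adjusted p in CKD JV001 against CKD saline and the 2 with the smallest in each other contrast (1 mitophagy gene is not reported here), and for each member the 3 most similar profiles. Library numbers were used as a possible pairing of the 2 CKD groups in some fits and ratios, not in the main fit. Every same-numbered pair deviated together there (correlations 0.296, 0.289 and 0.492), whereas other groups did not. Deviations cancel within a group, so these correlations are not independent and cannot establish a pairing. CKD saline libraries 1 and 2 were the closest replicates (chi-square per degree of freedom 8.77, other pairs 25.3 to 392), beyond sampling noise, and were counted separately.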

Additional observations from a re-analysis of the deposited data

How the results depend on the processing

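Under 19 to 24 alternatives per comparison, no member was called in CKD saline against sham saline, in sham JV001 against sham saline or in the interaction. In CKD JV001 against CKD saline, 0 members became 6 without library 3 of both CKD groups and with the replicate block in the CKD groups only, and 0 to 6 with 1 library left out. With CKD JV001 against sham JV001, 0 members became 4 with DESeq2, 1 in a fit of only the groups compared and 4 without library 3 of both CKD groups. The replicate block over all 12 libraries called 0 members in every comparison. The cause was not tested.

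Over all genes, CKD saline against sham saline gave 0 calls, but 54 with DESeq2 and 1 with limma on unfiltered FPKM. In CKD JV001 against CKD saline the 0 became 67 with DESeq2, 6 with limma on unfiltered FPKM, 3043 without library 3 of both CKD groups, 2850 with the CKD-only block and 0 to 3287 with 1 library left out, the highest without library 3 of CKD saline. In sham JV001 against sham saline it became 3 with DESeq2 and 3 with limma on unfiltered FPKM, and in the interaction 2 with DESeq2. The 3 calls in CKD JV001 against sham JV001 became 7 with RLE factors, 5 unfiltered, 12 with a stricter filter, 2016 with DESeq2, 792 with only the groups compared, 0 with the replicate block, 7 without mitochondrial genome and haemoglobin genes, 74 with limma on log2(FPKM + 1), 10 with a pseudocount of 0.1, 16 unfiltered on FPKM, 1433 without library 3 of both CKD groups, 0 with CKD saline libraries 1 and 2 summed, 8 with a robust spread and 0 to 2 with 1 library left out.

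Signs turned only for log2 fold changes that were never called. In CKD saline against sham saline, Fis1 was -0.076 with limma at a pseudocount of 1 (filtered or not) and -0.078 at 0.1, -0.045 with the summed libraries and -0.054 to 0.18 with 1 library left out. Bnip3 was -0.069 under all 3 limma settings, -0.010 with the replicate block, -0.056 with the summed libraries and -0.095 to 0.21. Without library 3 of both CKD groups, Mfn1 was 0.0017, Mff 0.090, Pink1 0.034 and Fundc1 0.014, and with 1 library left out Mfn1 ran from -0.35 to 0.00092, Mff from -0.24 to 0.089, Pink1 from -0.28 to 0.033 and Fundc1 from -0.26 to 0.014. For CKD JV001 against CKD saline, Fundc1 was 0.070 and 0.080 with limma at 1 and 0.1, 0.0019 with the summed libraries and -0.21 to 0.13. In CKD JV001 against sham JV001, Bnip3l was 0.0011 with RLE factors, 0.0012 with DESeq2, 0.066 and 0.071 with limma at 1 and 0.1, 0.038 without library 3 of both CKD groups and -0.060 to 0.045, and Fis1 was 0.030 without those libraries and -0.30 to 0.038. In the interaction, Bnip3l was 0.034 and 0.037 with limma and -0.19 to -0.074 with 1 library left out, and Fis1 -0.34 to 0.018. The log2 ratio of Bnip3l over Bnip3 in CKD saline against sham saline, 0.10, ran from -0.12 to 0.29. The median of all genes moved with limma on FPKM too, to as much as 0.13 on the log2 scale between CKD JV001 and CKD saline.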

Other observations

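The autophagy adaptors and LC3 family proteins, which carry tagged mitochondria into autophagosomes, gave no call in any comparison with edgeR over all 12 libraries and no block. Of 13 listed genes 12 were found and tested, and 10 of them had a lower log2 fold change in CKD JV001 against CKD saline (median -0.25, against 0.022 over all genes). Ulk1, the kinase that starts autophagy, averaged 66.1 ± 6.98 CPM in CKD JV001 and 101 ± 23.5 CPM in CKD saline, without overlap (log2 fold change -0.62, SE 0.19, edgeR adjusted p = 0.276). Optn, an adaptor that binds ubiquitin, had a log2 fold change of -0.60 (SE 0.29), Vcp, an extractase of ubiquitinated proteins, one of -0.54 (SE 0.20), and Sqstm1, the adaptor p62, one of -0.33 (SE 0.19). Between CKD JV001 and sham JV001, 6 of the 12 lay lower and 1 higher without overlap (20.1% and 22.9% of all genes), with Optn at 83.3 ± 22.9 CPM in CKD JV001 and 136 ± 19.8 CPM in sham JV001 (log2 fold change -0.71, SE 0.29, edgeR adjusted p = 0.153). With the library number as a block in the CKD groups alone, Map1lc3a, Optn, Ulk1 and Vcp were called lower in CKD JV001 than in CKD saline, beside 9.56% of all genes.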
